A study of Mus musculus with 6 samples.

Results

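The regions described here are 521 distal ATAC-seq peaks of low to intermediate accessibility in wild-type distal forelimb buds and of higher accessibility in Hox13-/- buds. They are referred to as newly opened peaks, a name that does not mean that they lacked accessibility in wild type. They were selected from 61954 deposited peaks on the accessibility values themselves. The mean of the Hox13-/- libraries had to exceed that of wild type by at least 0.58 on a log2 scale, both mutant libraries had to lie above both wild-type libraries, the wild-type mean had to be below 5, and the peak midpoint had to lie more than 1 kb from every annotated transcription start site. Of all peaks, 40535 were distal in this sense, and the newly opened peaks were 1.29% of them. The accessibility values of the 521 peaks are therefore descriptions, and no test of the genotype is given for them.

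ATAC-seq marks open chromatin through the insertion of adapters by the transposase Tn5. The libraries were made from distal forelimb buds of mouse embryos at E11.5, of mixed C57Bl/6 x 129 background, each prepared from the buds of both sides of 1 embryo. There were 2 wild-type libraries and 2 libraries with the genotype labelled HOX13-/-, in which Hoxa13 (Hoxa13Str) and Hoxd13 (Hoxd13lacZ) carry null alleles throughout the embryo. The values are regularised log (rLog) values, which are on a log2 scale, scaled between libraries and shrunk towards the mean of each peak, so that the depth behind a peak is unknown. ATAC-seq was done on whole dissected tissue, so that more cells with an open site and more opening per cell cannot be told apart.

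HOXA13 and HOXD13 are homeodomain transcription factors of the distal limb, which is the territory that forms the digits. HOX13 proteins prefer an A/T-rich site of the CAATAAA type, whereas many other homeodomain proteins, among them LIM, MSX and DLX factors, recognise the core TAATTA. MEIS and PBX proteins bind DNA with HOX proteins and are abundant in the proximal limb. TEAD proteins are the DNA-binding partners of YAP and are active in many growing tissues.

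Sequences of 9 newly opened peaks are shown, each as the 200 bp around the peak midpoint, forward strand of GRCm38 (mm10), read from the RefSeq assembly. The first 4 are those with the largest accessibility differences, and the other 5 were chosen after their values were seen, to show motif matches and peaks near limb or growth genes. Capitals mark matches, on either strand, to TAATTA, to the posterior HOX words CAATAAA and TCGTAAA, to the MEIS word TGACAG, to the PBX-HOX word TGATTNAT and to the TEAD word GGAATG.
Col25a1 peak, chr3:130294215-130294414: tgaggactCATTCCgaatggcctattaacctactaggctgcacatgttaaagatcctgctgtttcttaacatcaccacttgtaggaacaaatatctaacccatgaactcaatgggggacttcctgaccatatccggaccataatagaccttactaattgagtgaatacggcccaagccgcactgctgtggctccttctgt
Fam184b peak, chr5:45595962-45596161: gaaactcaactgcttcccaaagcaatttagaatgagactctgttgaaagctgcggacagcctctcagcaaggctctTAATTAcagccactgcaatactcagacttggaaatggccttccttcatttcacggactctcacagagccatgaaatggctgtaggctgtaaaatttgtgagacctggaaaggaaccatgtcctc
Hmga2 peak, chr10:120444696-120444895: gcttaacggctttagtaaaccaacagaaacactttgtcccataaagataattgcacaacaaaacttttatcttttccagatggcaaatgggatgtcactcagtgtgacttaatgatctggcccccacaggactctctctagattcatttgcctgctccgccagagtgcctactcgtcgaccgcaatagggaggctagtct
Auts2 peak, chr5:133160297-133160496: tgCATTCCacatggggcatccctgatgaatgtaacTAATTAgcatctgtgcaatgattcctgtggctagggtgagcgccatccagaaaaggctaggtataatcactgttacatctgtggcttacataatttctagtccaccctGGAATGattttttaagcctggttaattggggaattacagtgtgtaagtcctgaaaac
Hs3st4 peak, chr7:124270752-124270951: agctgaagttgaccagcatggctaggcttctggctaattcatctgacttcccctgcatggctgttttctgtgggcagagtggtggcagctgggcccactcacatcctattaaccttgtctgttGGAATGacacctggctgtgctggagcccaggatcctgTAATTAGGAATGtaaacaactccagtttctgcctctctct
Sall1 peak, chr8:89541350-89541549: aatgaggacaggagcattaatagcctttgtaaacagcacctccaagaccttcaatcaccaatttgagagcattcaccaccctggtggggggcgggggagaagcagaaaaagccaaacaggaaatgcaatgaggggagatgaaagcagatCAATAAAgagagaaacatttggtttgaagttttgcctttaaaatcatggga
Igf1 peak, chr10:87872949-87873148: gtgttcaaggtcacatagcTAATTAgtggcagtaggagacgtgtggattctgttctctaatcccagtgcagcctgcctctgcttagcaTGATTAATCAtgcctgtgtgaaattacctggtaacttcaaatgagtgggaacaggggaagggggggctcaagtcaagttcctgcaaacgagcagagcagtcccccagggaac
Shox2 peak, chr3:66797744-66797943: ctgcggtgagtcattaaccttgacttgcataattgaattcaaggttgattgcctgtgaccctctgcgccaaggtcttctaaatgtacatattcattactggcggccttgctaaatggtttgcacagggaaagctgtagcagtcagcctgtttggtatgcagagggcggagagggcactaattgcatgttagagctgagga
Hoxa13 peak, chr6:52281188-52281387: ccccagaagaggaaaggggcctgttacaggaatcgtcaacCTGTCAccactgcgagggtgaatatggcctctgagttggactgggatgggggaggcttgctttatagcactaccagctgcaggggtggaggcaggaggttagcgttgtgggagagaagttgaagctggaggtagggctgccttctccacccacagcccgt
TAATTA is present in 4 of these 9 windows, those near Fam184b, Auts2, Hs3st4 and Igf1, and the Igf1 window also holds a palindromic PBX-HOX match. A posterior HOX word is present in 1 window, the Sall1 one. The windows near Hmga2 and Shox2 hold none of the marked words.

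The newly opened peaks were of low to intermediate accessibility. Their wild-type means ran from 2.97 to 5.00, with a median of 4.64, and their Hox13-/- means ran from 3.59 to 6.25, with a median of 5.33. The median difference was 0.68, and 308 of the 521 differences were under 0.7, 89 were at least 0.8 and 17 were at least 1. The median gap between the 2 wild-type libraries of a peak was 0.13 and that between the 2 mutant libraries was also 0.13, while the median distance from the higher wild-type to the lower mutant library was 0.55. The wild-type level was not at the bottom of the scale. The median of 4.64 was above the wild-type mean of 57.3% of all distal peaks, and the mutant median of 5.33 was above the mutant mean of 72.9% of them.

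**Figure D1:**
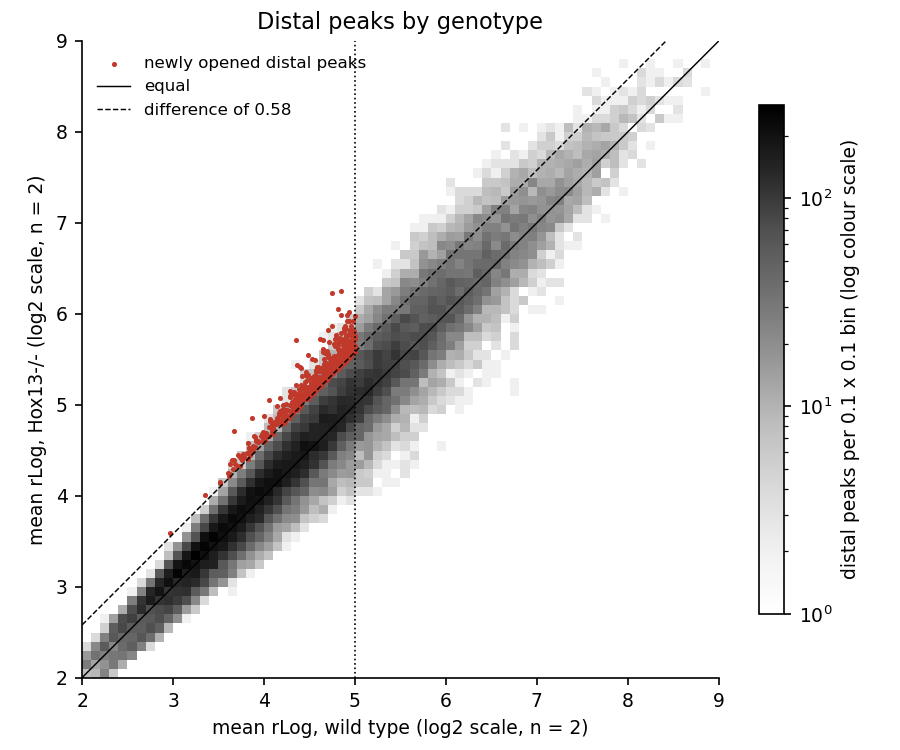
Mean rLog in wild type (x axis) and in Hox13-/- (y axis) of the distal peaks, as the number of peaks per bin in grey, with the 521 newly opened peaks as red points. The red points fill the corner left of the dotted line (wild-type mean of 5) and above the dashed line (difference of 0.58), and most lie close to those lines.

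The authors' peak calls per library come from the same reads as the values used for the selection, and a peak entered the table through a call in at least 1 library. The calls of the newly opened peaks are therefore tied to the selection and are given as a description. Of the newly opened peaks, 497 (95.4%) had a call in each mutant library and none in wild type. A further 13 had been called in Hox13-/- replicate 2 only, and 11 had been called in both mutant libraries and in wild-type replicate 1. None had been called in wild-type replicate 2, the library with a call at the fewest of the 61954 deposited peaks (27241, against 38401 to 45587 in the others). Calls in both mutant libraries and none in wild type were also found at 510 (35.0%) of the 1458 strengthened distal peaks, which met the same difference but had a wild-type mean of at least 5. The share was 16.7% of the other distal peaks with a wild-type mean below 5 and 14.2% of all 40014 other distal peaks. Newly opened peaks were longer than the other distal peaks with a wild-type mean below 5, with a median of 351 bp against 164 bp. An rLog value covers all reads of a peak, so a longer peak reaches the same value at a lower density of reads.

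Peaks at the edge of the selection differed little from those left out. The smallest difference kept was 0.58002, at a peak 93.7 kb from the start of Chrd, which encodes a BMP antagonist, with values of 4.86 and 4.76 in the wild type against 5.48 and 5.30 in the mutant. The largest difference left out was 0.57997, near Slc28a3. The highest wild-type mean kept was 4.998, near Ctsd, and the lowest left out was 5.001, near Brd7. The peaks nearest to a start site were 1006 bp away when kept, near Eef1akmt2, and 995 bp away when left out, near Sec16b. In all, 34 peaks met the other criteria but lay within 1 kb of a start site.

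Accessibility over the targeted genes was measured, although it does not check the alleles. The peak over the Hoxa13 start site had values of 5.71 and 5.95 in the wild type against 5.66 and 5.84 in the mutant, a difference of -0.08 (limma, adjusted p = 0.71). At a peak over the Hoxd13 start site the values were 4.06 and 4.17 in the wild type against 3.70 and 3.50 in the mutant, a difference of -0.52 (limma, adjusted p = 0.00061). That call was lost without Hox13-/- replicate 2 (adjusted p = 0.056). Another Hoxd13 start-site peak, with values of 4.35 and 4.34 against 3.99 and 4.17, was not called (difference -0.26, limma adjusted p = 0.14). The tissue was checked at start sites of marker genes. All 10 limb mesenchyme markers (among them Prrx1, Msx1 and Lhx9) had a start-site peak, with a median wild-type level of 6.39. By contrast 1 of 5 muscle, 1 of 5 blood, 2 of 5 ectoderm and 1 of 4 neural crest markers had one, at wild-type levels between 2.80 and 4.21, and none of these was called higher or lower. Kdr and other markers of endothelium had a peak at 2 of 5 start sites, with levels of 5.70 to 6.69 in wild type and 5.68 to 6.68 in Hox13-/-. The forelimb gene Tbx5 had a start-site peak at 3.81 in wild type and 3.92 in Hox13-/- and was not called. Of the 2 hindlimb markers Tbx4 had one, with values of 4.30 and 4.38 in the wild type against 3.85 and 4.03 in the mutant, and it was called lower (difference -0.40, limma adjusted p = 0.014). Of the limb mesenchyme markers Twist1 was also called lower (6.09 and 6.18 against 5.92 and 5.55, difference -0.40, limma adjusted p = 0.014), and the other 9 were not called. The part of these cell types in the results below was not tested.

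The 3 largest differences lay in introns. In an intron of Col25a1, which encodes a transmembrane collagen, the peak at chr3:130294120-130294508 had values of 4.50 and 5.00 in the wild type against 6.28 and 6.19 in the mutant, a difference of 1.48 and a 2.80-fold change on the shrunken scale. This was the largest of the 521 differences, and its wild-type libraries were farther apart than those of the next peaks. In an intron of Fam184b, chr5:45595811-45596311 had values of 4.78 and 4.91 in the wild type against 6.22 and 6.27 in the mutant (difference 1.40). In an intron of Hmga2, which encodes a chromatin protein of embryonic growth, chr10:120444563-120445027 rose from 4.31 and 4.39 to 5.85 and 5.58 (difference 1.37), the lowest wild-type level among these 3. No library of one genotype overlapped the other in any of them, which the selection required.

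Auts2, which encodes a nuclear regulator known from brain development, was the gene nearest to most newly opened peaks, with 4. One lay 617.1 kb upstream, at chr5:133160191-133160602, with values of 4.82 and 4.80 in the wild type against 6.00 and 6.12 in the mutant. Another, at chr5:131990374-131990888 in an exon of a noncoding Auts2 transcript, had values of 4.63 and 4.86 against 5.92 and 5.81. Their differences were 1.25 and 1.12, and those of the other 2 Auts2 peaks, both intronic, were 0.73 and 0.60. The Auts2 peaks thus lay on both sides of the gene's start.

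Genes of axon guidance and adhesion stood near several of the following peaks. The peak 622.5 kb from the start of Unc5d, a netrin receptor gene, at chr8:28596758-28597172, had values of 4.63 and 4.78 in the wild type against 5.74 and 5.90 in the mutant (difference 1.12). The peak 46.3 kb upstream of Slit3, which encodes a secreted ROBO ligand, at chr11:35074757-35075069, had values of 4.97 and 4.89 against 5.89 and 6.15 (difference 1.09). In Cntn4, a gene of neural cell adhesion, the intronic peak chr6:105892849-105893297 had values of 4.39 and 4.57 against 5.54 and 5.55 (difference 1.07). The 12 largest differences were completed by peaks near Sp5 (1.13), in Hs3st4 (1.11), near Nrip1 (1.08) and near Sall1 (1.07), and they ran from 1.07 to 1.48.

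**Figure D2:**
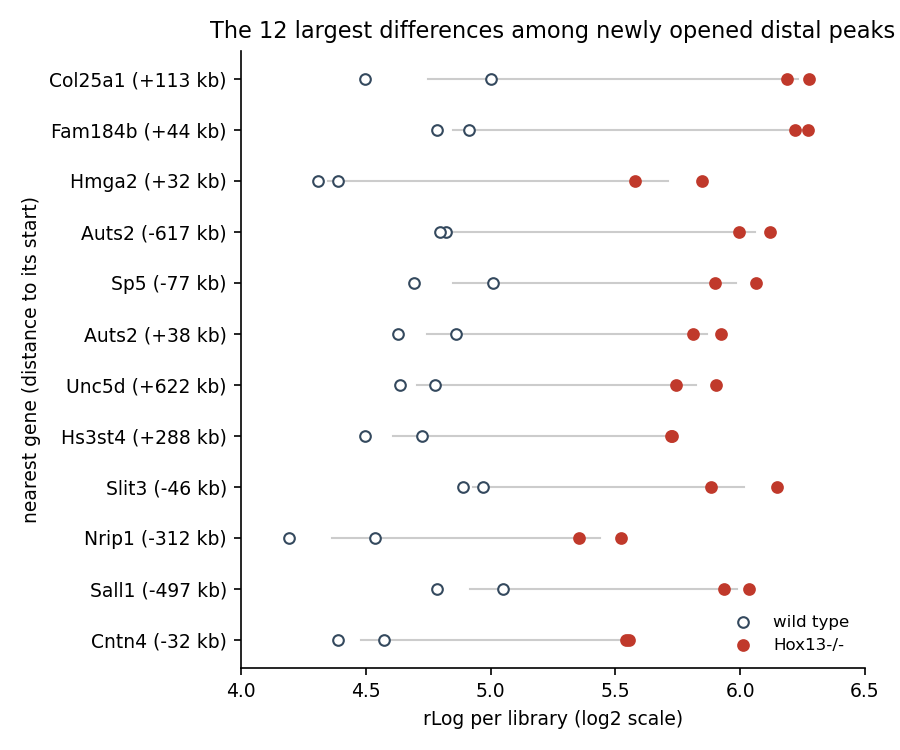
rLog in each library (x axis) at the 12 newly opened peaks with the largest differences, named by their nearest gene and the distance to its start (minus, upstream). Open circles are the 2 wild-type libraries and red points the 2 Hox13-/- libraries, with a grey line between the means. The wild-type points lie below 5.1 and the mutant points above 5.3 in every row.

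Among the 17 peaks with a difference of at least 1, the lowest wild-type level was in an intron of Mpp6, with values of 3.68 and 3.66 in the wild type against 4.63 and 4.80 in the mutant (difference 1.05). The next were the Hmga2 and Nrip1 peaks, the peak 57.6 kb from Fam173b (4.16 and 4.63 against 5.52 and 5.31), the peak 1547.4 kb upstream of Pcdh17 (4.48 and 4.34 against 5.49 and 5.33) and the Cntn4 peak. Pcdh17 encodes a protocadherin, and its peak was the most remote of those named.

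The 521 peaks were nearest to 474 protein-coding genes, of which 433 had 1 peak, 36 had 2 and 5 had 3 or more. After Auts2 these were Slit3, Tenm4, Rab28 and Cd83, with 3 each. Tenm4 encodes a teneurin of cell adhesion, Rab28 a small GTPase and Cd83 an immunoglobulin-family protein of immune cells. The differences ran from 0.64 to 1.09 at Slit3, from 0.67 to 0.97 at Tenm4, from 0.62 to 0.84 at Rab28 and from 0.69 to 0.71 at Cd83. Of the genes with 2 peaks, Cntn4 (0.95 and 1.07), Rora (0.74 and 0.87) and Stt3b (0.74 and 0.84) had the largest summed differences. Nearest is a statement of position, and no peak was tied to a gene by another measurement.

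Each gene on the 2 limb lists that was nearest to a newly opened peak had 1 such peak. Fmn1, a gene known from limb deformity mutants that is on neither list, had 2 (0.69 and 0.65). Of the 23 genes on a list of proximal limb identity, 5 were nearest to a newly opened peak (0.96% of the 521 peaks, against 0.602% of the other distal peaks with a wild-type mean below 5). The share was also 0.96% of strengthened peaks, and 0.702% of closed peaks, which met the opposite criteria. The peak 180.6 kb from the start of Shox2, a homeobox gene of the proximal limb skeleton, at chr3:66797709-66797978, had values of 4.36 and 4.45 in the wild type against 5.15 and 5.20 in the mutant (difference 0.77). The peak 224.9 kb from Tbx18 had values of 4.85 and 4.98 against 5.54 and 5.81 (difference 0.76). The peak 13.8 kb upstream of Pkdcc, which encodes a secreted kinase needed for bone growth, had values of 3.97 and 4.16 against 4.75 and 4.88 (difference 0.76). The other 2 were near Nr2f2 (0.64) and 3 kb from a start of Hoxd11 (0.59).

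Of the 24 genes on a list of the distal limb and digits, 6 were nearest to a newly opened peak (1.15% against 0.722%). The share was 0.823% of strengthened and 1.05% of closed peaks. The peak 497.3 kb upstream of Sall1, a zinc-finger factor gene of limb and kidney, at chr8:89541194-89541704, had values of 5.05 and 4.78 in the wild type against 6.04 and 5.93 in the mutant (difference 1.07). The peak 245.5 kb upstream of the related Sall3 had values of 4.82 and 4.73 against 5.49 and 5.58 (difference 0.76). In an intron of Shh, which encodes the signal of the posterior limb margin, the peak chr5:28460637-28460891 had values of 3.93 and 3.81 against 4.53 and 4.50 (difference 0.65). The remaining peaks were in an intron of Epha3 (0.64), 78.5 kb from Bmp2 (0.61) and 20.4 kb upstream of Hoxa13 (0.60). Peaks of both lists thus covered much of the range of differences, and 4 of these 11 had a difference above 0.7 and below 0.8.

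The list of axon guidance and cell adhesion genes held the most, with 16 peaks near 12 of its 36 genes. That was 3.07% of the newly opened peaks, against 1.65% of the strengthened, 2.63% of the closed and 1.59% of the other low distal peaks. Beside Unc5d, Slit3 and Cntn4 its genes were Cdh11, Epha3, Epha4, Ncam2, Pcdh17, Robo2, Sema3c, Slit2 and Unc5c. Such genes are often long and flanked by wide intergenic DNA, and the peaks of a list are not replicates, so that no test was run on these shares. The list named signalling ligands and receptors had 4 peaks (near Gas1, Gas2, Igf1 and Rspo3), although Gas2 encodes neither a ligand nor a receptor. Cartilage and joint genes also had 4 (near Chrd, Foxp1, Nfib and Sox5). Each was 0.768% of the newly opened peaks and lay below the share of other low distal peaks, 0.928% for signalling and 0.965% for cartilage and joint. Tendon and connective tissue genes had 1 peak (Ebf1), 0.192% against 0.767%. Of the lists for other tissues, blood had 2 peaks (both near Ptprc, 0.384% against 0.135% of other low distal peaks). Endothelium had 1 (Kdr, 0.192% against 0.228%) and muscle 1 (Cdh15, 0.192% against 0.183%). Limb ectoderm and nerve had 0, against 0.153% and 0.112%. These counts are too small to compare.

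The newly opened peaks lay farther from genes than the other low distal peaks, as did the strengthened and the closed peaks. The median distance from the nearest protein-coding start was 57.9 kb, against 33.6 kb for the other distal peaks with a wild-type mean below 5. It was 61.5 kb for the strengthened peaks and 46.4 kb for the 570 closed peaks, which met the opposite criteria. Of the newly opened peaks, 199 (38.2%) were over 100 kb from a protein-coding start, against 25.6% of the other low distal peaks. The share was 38.4% of the strengthened and 34% of the closed peaks. By annotation, 273 (52.4%) lay in introns, 228 (43.8%) were intergenic, 9 lay in noncoding exons, 8 in UTRs and 3 in coding exons. There were 244 peaks inside a protein-coding gene, and for 213 of them it was the gene with the nearest start. Upstream and downstream positions were nearly balanced, at 273 and 248.

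They were scattered over the genome. All 19 autosomes held some, from 10 on each of chromosomes 17 and 19 to 47 on chromosome 2, and their share of distal peaks ran from 0.673% on chromosome 17 to 1.74% on chromosome 12. The median distance from a newly opened peak to the next nearest one was 1170 kb. With a gap of at most 50 kb allowed, 493 stood alone and 28 formed 14 pairs, with no longer run. The pair with the largest summed difference lay upstream of Slit3, 11.3 kb apart (differences 1.09 and 0.64), followed by a pair in Auts2 (1.12 and 0.60), and pairs near Cdkn3 (0.98 and 0.59), Zfp608 (0.91 and 0.64), Samm50 and Parvb (0.86 and 0.65) and Mettl11b (0.76 and 0.72). Of 370 newly opened peaks followed by another distal peak within 50 kb, 6 (1.62%) were followed by a newly opened one, beside 1.2% of all 29087 such pairs. Within 5 Mb of the targeted genes the counts were 5 of 349 distal peaks around Hoxa13 (1.43%) and 8 of 318 around Hoxd13 (2.52%), small numbers beside the 1.29% of all distal peaks.

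Sequence content was compared with 3 classes of distal peak, as shares of peaks with no test, since peaks are not replicates. The classes, also used for the distances from genes, were not matched for level or length. The median wild-type mean was 4.64 in newly opened, 5.85 in strengthened, 5.03 in closed and 3.83 in other low distal peaks. The median length of the last class was 164 bp, against 351 bp for newly opened peaks, so that a 200 bp window often reaches beyond its peaks. The GC content of the newly opened peaks had a median of 47.5%, close to the 47.2% of strengthened peaks and the 48.8% of other low distal peaks, and above the 43.2% of closed peaks. Of their 200 bp windows, 5 (0.96%) were at least 50% repeat-masked. A set of 24 short words was searched on both strands of the 200 bp around each midpoint. TAATTA was present in 103 of the newly opened peaks (19.8%), in 20.6% of strengthened peaks, in 10.6% of other low distal peaks and in 8.07% of closed peaks, beside 8.01% of all peaks. The posterior HOX words were instead most frequent in closed peaks. They were present in 32 newly opened peaks (6.14%) and in 19.8% of closed peaks, with 6.80% of other low distal peaks and 6.72% of strengthened peaks, and 5.49% of all peaks.

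The TAATTA share was higher in newly opened than in other low distal and closed peaks at each of 3 levels of GC content. In windows under 43% GC it was 24.7% (23 of 93), against 30.5% of strengthened, 19.6% of other low distal and 10.6% of closed peaks. Between 43 and 50% GC it was 21.9% (55 of 251) against 21.9%, 12% and 5.64% of these classes, and from 50% GC upwards it was 14.1% (25 of 177) against 13.0%, 5.64% and 4.17%. The margin over other low distal peaks was thus smallest, in ratio, in the A/T-rich windows. Only 6 newly opened windows held TAATTA more than once, and 5 held both TAATTA and a posterior HOX word.

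TAATTA also lay near the peak centres. In the 2 bins of 50 bp on either side of the midpoint, 6.33% of newly opened peaks held a match per bin, against 2.11% per bin at 300 to 500 bp, a ratio of 3.00. The ratio was 2.55 in strengthened peaks, 1.80 in other low distal peaks and 0.749 in closed peaks. For the posterior HOX words it was 1.27 in newly opened peaks and 3.18 in closed peaks. At the centres TAATTA was thus the more concentrated word in newly opened peaks, and the posterior HOX words were in closed peaks. Either was present in the 200 bp windows of 25% of newly opened and 26.5% of closed peaks, so most peaks of both held neither.

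**Figure D3:**
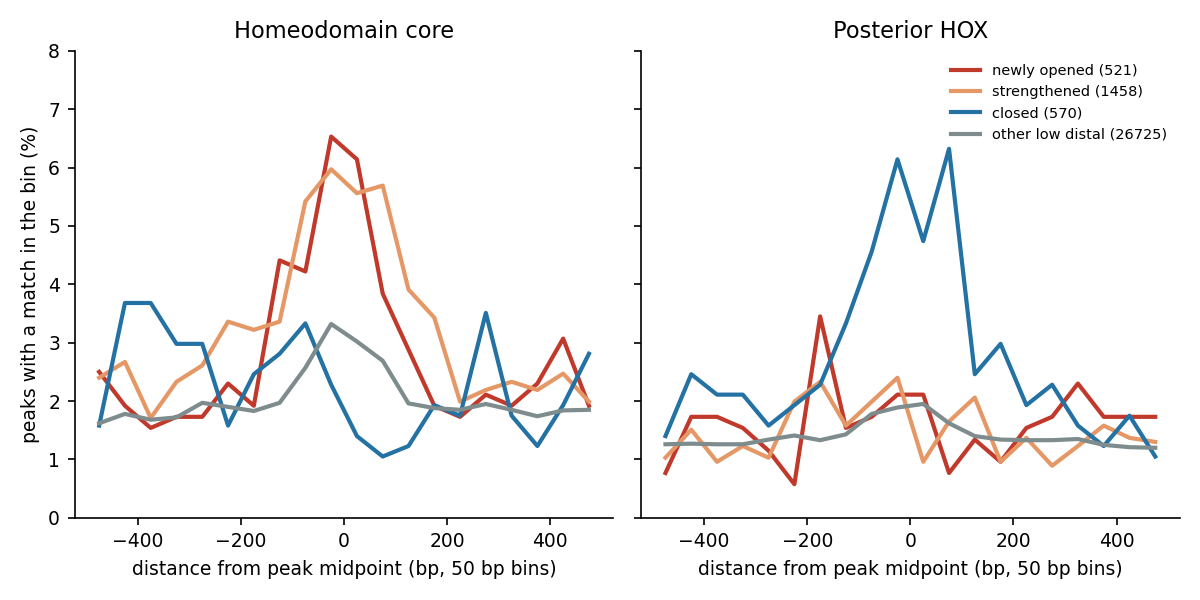
Share of peaks with a match (y axis, percent per 50 bp bin) by distance from the peak midpoint (x axis, bp) for TAATTA (left) and the posterior HOX words (right), in 4 classes of distal peak. Newly opened and strengthened peaks rise at the centre on the left, from about 2% in the flanks to a highest bin of 6.53% and 5.97%, and closed peaks rise at the centre on the right.

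Of the other words, TEAD was the most frequent in newly opened peaks, at 21.9% (114 peaks), against 16.3% of strengthened, 13.3% of closed and 17.2% of other low distal peaks. The T-box word AGGTGTGA was present in 2.88% (15 peaks), against 1.05 to 1.26% in the other 3 classes. PBX-HOX was present in 4.99% (26 peaks) and in 4.46% of strengthened peaks, against 2.98% of closed and 3.00% of other low distal peaks. The MEIS word was present in 15.5% of newly opened and 16.3% of strengthened peaks, against 7.19% of closed and 13.6% of other low distal peaks. The NFI word TTGGCA (17.3%) and the nuclear receptor word AGGTCA (14.4%) were also least frequent in closed peaks, at 10.4% and 8.25%. Lower in newly opened than in other low distal peaks were CATCTG (15.9% against 21.2%), an E-box of bHLH factors, GGGCGG (3.07% against 6.31%), the SP/KLF word, and the CTCF core AGNNGGCGC (0.576% against 3.77%). Words of GATA, RUNX, SOX, PITX and AP-1 factors differed by less than 1 percentage point between these 2 classes. TAATTA and the posterior HOX words do not overlap in sequence, whereas TGATTNAT can overlap TAATTA by a few bases.

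**Figure D4:**
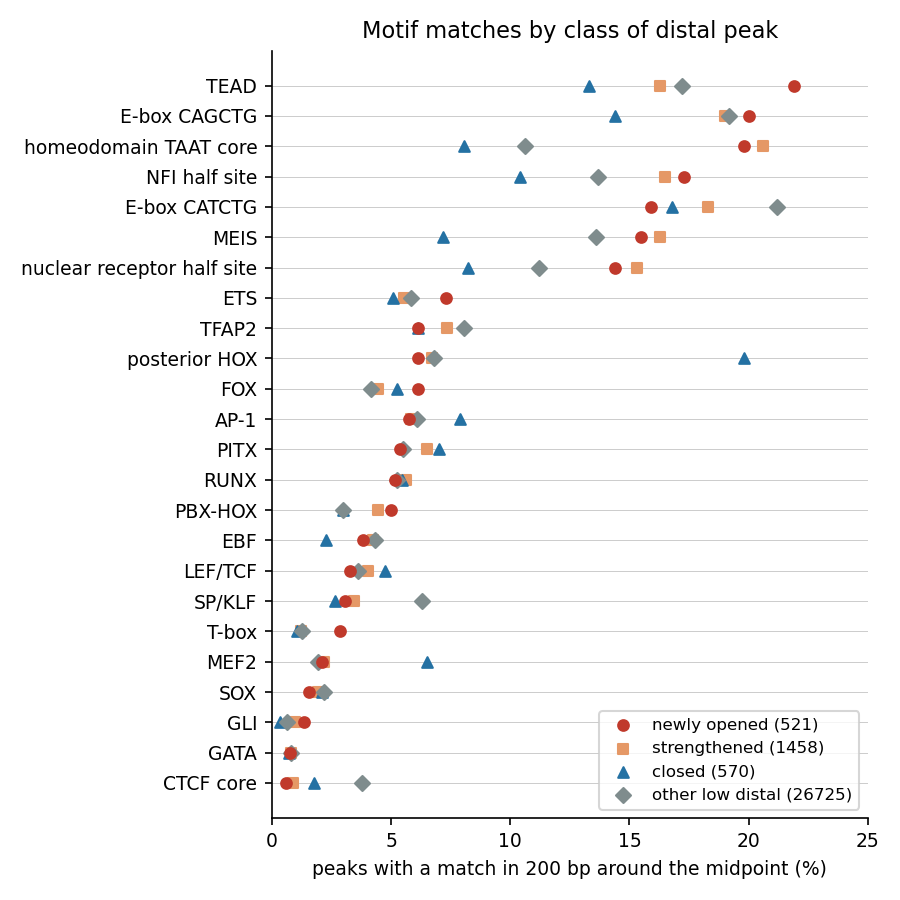
Share of peaks (x axis, percent) with at least 1 match to each of 24 short words (rows) in the 200 bp around the midpoint, for newly opened (red circles), strengthened (orange squares), closed (blue triangles) and other low distal peaks (grey diamonds). Red and orange lie together and apart from grey and blue for the homeodomain core, where the shares are 19.8% and 20.6% against 10.6% and 8.07%, and blue stands alone for posterior HOX at 19.8%.

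Whether the surroundings of the newly opened peaks also differed between genotypes was tested at peaks outside the newly opened set, in the same 4 libraries, with limma across all 61954 peaks (adjusted p under 0.05). The nearest distal peak that was not itself newly opened, within 100 kb, gave 476 neighbours. Of these, 126 (26.5%) were higher in Hox13-/- and 19 (3.99%) were lower, against 15.0% and 8.41% of all 40014 distal peaks that were not newly opened. The median difference of the neighbours was 0.14, against 0.06 for those 40014 peaks, at like levels (median rLog 4.33 and 4.4). No test was run on these shares. The share called higher fell with distance, from 38.6% of 127 neighbours within 2 kb to 24.5% of 229 between 2 and 20 kb and 17.5% of 120 between 20 and 100 kb. Neighbours within 2 kb may belong to the same open region. Distal peaks that passed the selection are by definition not among the neighbours. Of the 476, 34 met the same difference from a wild-type mean of at least 5, beside 1458 of the 40014.

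Several neighbours had larger changes than the peak beside them. A peak 554 bp from a newly opened peak near Cd83 had values of 5.79 and 5.76 in the wild type against 7.31 and 7.08 in the mutant (difference 1.42, limma adjusted p = 3.1e-25). A peak 2819 bp from the one near Slit2, which like Slit3 encodes a ROBO ligand, had values of 5.56 and 5.70 against 6.88 and 6.80 (difference 1.21, adjusted p = 2.9e-18). The neighbour of the Shox2 peak, 752 bp away, had values of 5.85 and 6.10 against 6.86 and 6.93 (difference 0.92, adjusted p = 8.2e-11). The neighbour of the Hoxa13 peak, 4725 bp away, had values of 6.60 and 6.52 against 7.17 and 7.18 (difference 0.61, adjusted p = 3.2e-05). All these groups were apart. The neighbour with the strongest decrease, 11018 bp from a newly opened peak near Spred2, an inhibitor of RAS signalling, had values of 5.80 and 6.03 in the wild type against 4.52 and 4.50 in the mutant (difference -1.41, adjusted p = 8.2e-24), so that opposite changes stood about 11 kb apart.

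Of 36 neighbours of peaks near genes on any of the lists, 13 were higher, 0 were lower and 23 were not called, beside 26.5% higher and 3.99% lower among all neighbours and 15.0% and 8.41% among all other distal peaks. For the 2 limb lists 4 of 11 were higher, those near Shox2, Hoxa13, Nr2f2 and Tbx18. The last 2 were the least firm. The Nr2f2 neighbour (difference 0.42, adjusted p = 0.0073) lost its call without Hox13-/- replicate 2, and the Tbx18 neighbour (0.38, adjusted p = 0.025) lost it without any single library, up to an adjusted p of 0.20. The neighbours near Shh (-0.13), Bmp2 (0.12) and Sall1 (0.24) were not called.

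Start-site peaks of the nearest genes were tested in the same way. Among 821 peaks within 1 kb of a start of these genes, 25 (3.05%) were higher in Hox13-/- and 58 (7.06%) were lower, against 1.49% and 8.51% of all 19138 start-site peaks of protein-coding genes. Start-site peaks were on the whole slightly lower in the mutant, with median differences of -0.09 near newly opened peaks and -0.11 overall. Of the 398 genes with such a peak, 23 had one that was higher, 51 had one that was lower, and 1 had both. The share called higher lay above that of all start sites here and in each alternative fit. The share called lower lay below it here, but slightly above it with a correction for GC content (3.90% against 3.63%, and 3.78% against 3.44% with the replicate number as a block too), without wild-type replicate 2 (4.75% against 4.50%) and without Hox13-/- replicate 1 (3.78% against 3.74%). No test was run on these shares.

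**Figure D5:**
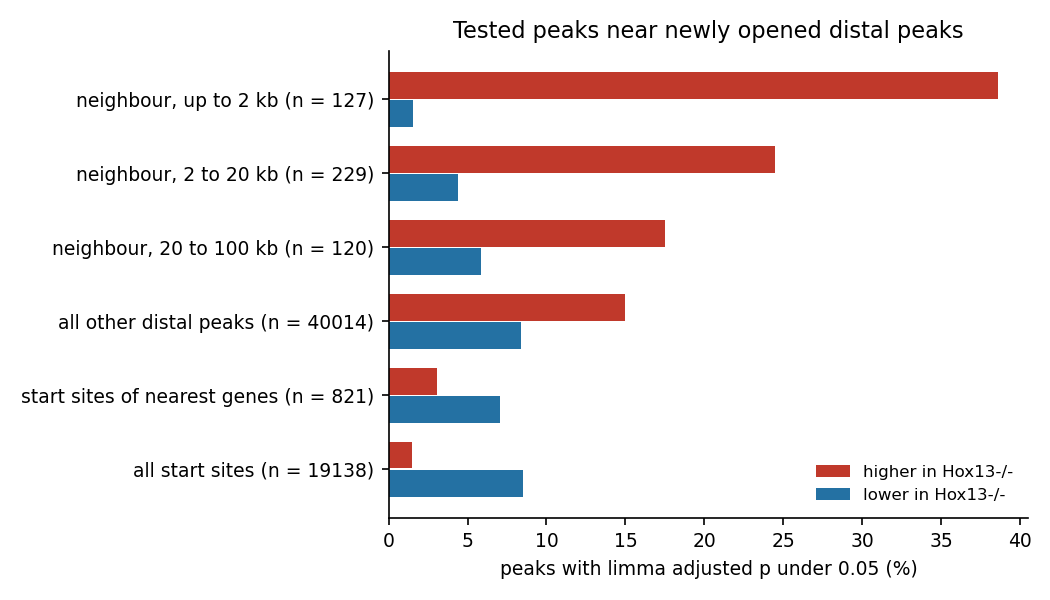
Share of peaks (x axis, percent) called higher (red) or lower (blue) in Hox13-/- by limma at an adjusted p under 0.05, for neighbours of newly opened peaks by distance, for start-site peaks of their nearest genes, and for all other distal and all start-site peaks. Red bars shorten from 38.6% within 2 kb to 17.5% beyond 20 kb, beside 15.0% of all other distal peaks, and start sites have short red bars of 3.05% and 1.49%.

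The start-site peak with the smallest p among those higher belonged to Ppm1h, a protein phosphatase gene with 2 newly opened peaks (0.73 and 0.58), at chr10:122894557-122895328, with values of 6.32 and 6.27 in the wild type against 7.31 and 7.66 in the mutant (difference 1.19, SE 0.127, limma adjusted p = 5.1e-18). A start of a noncoding transcript of Mad1l1, a spindle checkpoint gene, had values of 5.27 and 5.14 against 6.38 and 6.18 (1.07, adjusted p = 3.5e-14). Lrrc15 had values of 5.14 and 5.18 against 5.93 and 5.88 (0.74, adjusted p = 5.6e-07). A noncoding start of Lrig1, a regulator of growth factor receptors, had values of 6.76 and 6.66 against 7.36 and 7.21 (0.58, adjusted p = 9.7e-05). In all of them both mutant libraries lay above both wild-type libraries.

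Ppm1h also had a neighbour that was higher, 5334 bp from a newly opened peak (4.99 and 5.11 against 5.78 and 5.71, difference 0.69, limma adjusted p = 3.7e-06). Igf1, which encodes an insulin-like growth factor, was another gene with a newly opened peak, a neighbour and a start-site peak that were all higher. Its newly opened peak, in an intron at chr10:87872868-87873229, had values of 4.84 and 4.47 in the wild type against 5.59 and 5.56 in the mutant (difference 0.93). The neighbour 552 bp away had values of 5.43 and 5.61 against 6.49 and 6.31 (difference 0.88, adjusted p = 8.5e-10). The start-site peak at chr10:87860454-87861155 had values of 6.66 and 7.02 against 7.59 and 7.63 (difference 0.77, adjusted p = 5.8e-08), while a weaker start-site peak of Igf1 did not pass (0.17, adjusted p = 0.26). Epha3, an ephrin receptor gene of the distal limb, had 1 start-site peak that was higher (5.14 and 5.12 against 5.77 and 5.60, difference 0.55, adjusted p = 0.00036) and 1 that was not called (0.09, adjusted p = 0.65).

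Other genes had a newly opened peak and a start-site peak that was lower. At Mpped2, which has a newly opened intronic peak (difference 0.72), a start of a noncoding transcript had values of 6.91 and 6.86 in the wild type against 6.01 and 5.64 in the mutant (difference -1.06, adjusted p = 3.8e-14). At Tspan9, a tetraspanin gene, the values were 5.29 and 5.31 against 4.50 and 4.54 (-0.78, adjusted p = 1.7e-07), beside a newly opened intronic peak (0.65). At Mphosph6, an RNA-processing gene, they were 8.74 and 8.71 against 7.88 and 8.13 (-0.72, adjusted p = 1.9e-07), with the newly opened peak 202.7 kb upstream. Lower values at Lrrc8d (-0.61, adjusted p = 5.6e-05) and at a noncoding start of Cuedc1 (-0.58, adjusted p = 0.00018) lost their calls without 1 library, Hox13-/- replicate 1 (adjusted p = 0.060) and wild-type replicate 2 (adjusted p = 0.078). Cuedc1 was the gene with both, since another noncoding start was higher (0.55).

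Start sites of the limb lists as a whole had calls in both directions, beside the 1.49% higher and 8.51% lower of all start-site peaks. Of 47 start-site peaks of proximal limb genes, 4 were higher (at Hoxd9, Hoxd11, Hoxa10 and Pbx3, differences of 0.35 to 0.43) and 4 were lower (Tshz1 with 2, Hoxa10 and Hoxa9, -0.32 to -0.38), and each of these 8 calls was lost without at least 1 of the libraries. Of 50 start-site peaks of distal limb and digit genes, 3 were higher (Epha3, Sall3 and 1 of Dusp6) and 2 were lower (Hoxd13 and another of Dusp6), of which only the Epha3 call held without each single library. Neighbouring Hox genes have close or overlapping starts, and reads there cannot be assigned to 1 gene.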

How the data were processed

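ATAC-seq libraries of 2 wild-type and 2 Hox13-/- distal forelimb buds were analysed. Libraries of proximal limb buds were not analysed here. The authors aligned reads to mm10 with Bowtie2 2.3.1, called peaks with MACS2 2.1.1.20160309 in each library, merged them with HOMER 4.9.1 and deposited 1 rLog value (log2 scale, DESeq2) per library and peak. The authors also deposited fold changes and p-values of their own comparison, which were not used. Filtering of duplicates, blacklisted regions and the Tn5 shift are not given in the sources used here for these libraries. No counts were used, and no counting intervals can be given.

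The members, gene lists, motif words and tests were chosen with earlier results of these data known. Members were found by the rule in the text, with start sites of all GENCODE M21 transcripts. The wild-type and mutant rLog values were compared with limma 3.58.1 (R 4.3.3), fitted to all 61954 peaks (variance trend, two-sided, Benjamini-Hochberg adjustment) without covariates. The procedure was tested on data simulated from the fit itself, which cannot show how the shrinkage of rLog values affects the p-values. With 2 libraries per genotype, the p-values rest on a spread shared between peaks. Named were the 12 largest differences, the 6 lowest wild-type means among differences of at least 1, the 6 largest runs, the genes with most members, up to 3 members per limb list, peaks at each threshold and 5 start-site peaks in each direction. Neighbours, the other members near limb genes, Igf1, Epha3, Fmn1, Tbx4 and Twist1 were named after their values were seen. Sequence was read with pysam 0.24.0 from GRCm38.p6. Alternatives were other scalings, leaving out each library, other thresholds and windows, limma without the trend, a GC correction and the replicate number as a block. Coordinates are counted from 1.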

Additional observations from a re-analysis of the deposited data

How the results depend on the processing

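Of the choices tried, the thresholds moved the number of newly opened peaks most, from 521 to 89 at a difference of 0.8, 17 at a difference of 1, 47 with a wild-type mean below 4 and 1371 with a mean below 6. Median centring kept 408 and quantile normalization 402 of them and added none. Leaving out 1 library gave 619 to 771 peaks, which held 389 to 429 of the 521.

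Start-site peaks near newly opened peaks that were higher numbered 16 to 19 instead of 25 without 1 library, with 16 without Hox13-/- replicate 1. Lower ones numbered 27 to 39 instead of 58 without 1 library, the 27 without Hox13-/- replicate 2, 38 without wild-type replicate 1 and 31 without Hox13-/- replicate 1. They numbered 32 with the GC correction, and 29 at an adjusted p under 0.01, where 2.96% of all start-site peaks were called lower. With the nearest gene within 100 kb they numbered 35, from fewer than the 821 peaks tested. The share of all start-site peaks called lower also fell, from 8.51% to 3.63% with the GC correction. Neighbouring distal peaks that were higher numbered 82 to 91 instead of 126 without 1 library, with 82 without wild-type replicate 1, and 77 beyond 2 kb from the newly opened peak, a setting added after seeing the data. Lower ones numbered 11 to 15 instead of 19, with 11 without wild-type replicate 1, and 12 within 20 kb. The 2 settings by distance hold fewer peaks, since 127 of the 476 neighbours lay within 2 kb and 120 between 20 and 100 kb. Under each of these fits the neighbours were called higher more often, and lower less often, than all other distal peaks.

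The replicate number was not taken as a pairing. Wild-type and mutant libraries of the same number did not deviate together (correlation -0.01 across peaks), which does not show whether they shared a litter or batch. With the replicate number as a block, 25 start-site peaks were higher and 56 lower, and 123 neighbours were higher and 19 lower. With the block and the GC correction together 31 start-site peaks were lower. The posterior HOX share of newly opened peaks was 10.6% over the whole peak, above the 6.30% of other low distal peaks, which were shorter, and 3.65% against 3.58% in 100 bp, whereas in 200 bp it lay below theirs. It stayed under that of closed peaks (24.6% and 10.5%). The TAATTA share, in windows added after seeing the data, was 27.8% against 9.92% and 11.9% against 5.95%. No named tested peak that was followed through the alternatives changed direction. These peaks were picked for their calls, so that this outcome was largely fixed in advance. The cause of these differences was not tested, and depth per peak is unknown.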
